A study of Mus musculus with 6 samples.

Results

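Complement is a cascade of blood and tissue proteins that coats targets for uptake, draws in leukocytes and can lyse cells. The 9 complement genes described here, C1qa, C1qb, C1qc, C2, C3, C4b, Cfb, Cfp and C3ar1, were taken by exact symbol from the 36144 gene rows of a table of mouse subcutaneous fat, and all 9 had a row. In the classical pathway C1q recognises its target and C4 and C2 form the enzyme that cleaves C3. In the alternative pathway factor B joins C3, factor D cuts factor B, and properdin steadies the resulting enzyme. Liver makes most of the blood pool, whereas C1q comes mainly from macrophages, and fat is known for factor D, also called adipsin, an adipocyte product.

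The tissue was subcutaneous white adipose tissue, in 3 libraries labelled Tumor and 3 labelled WT, sequenced from poly-A RNA. The genotype label calls the libraries labelled Tumor MSRA full-body KO and those labelled WT MSRA WT, and every library carries the treatment label of an orthotopic transplant. The design text has pancreatic ductal adenocarcinoma cells grafted into hosts of both genotypes and fat collected 4 to 5 weeks later, but the series title sets tumour-bearing mice against tumour-free ones, so a contrast of tumour and one of genotype cannot be told apart. The labels give no strain, sex or age of the mice and do not name the tumour line. The replicates are called biological, and nothing further is said of separate animals.

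Several facts of the whole series touch these genes. Msra, the gene named by the genotype label, was measured at 52.9, 40.0 and 26.9 TPM in the Tumor libraries, against 51.1, 59.1 and 56.3 TPM in the WT libraries, so it was not lost in any library labelled as knockout, and all directions below go by the titles. TPM, the unit of the table, is a share of all transcripts corrected for length, so that levels of different genes can be set side by side, while the number of reads per library is unknown. The libraries had 13077 to 14253 genes at 1 TPM or more. Adipocyte markers were high in every library, with Adipoq at 721 to 3455 TPM in Tumor libraries and 1413 to 3403 TPM in WT libraries. B cell markers, 8 genes in sum, gave 10.5, 1723 and 2495 TPM in Tumor libraries and 1011, 757 and 4.47 TPM in WT libraries, so that Tumor replicate 1 and WT replicate 3 stood apart as poor in lymphoid RNA. Skeletal muscle markers, also 8 genes in sum, gave 1900, 584 and 2394 TPM in Tumor libraries, against 13.5, 2739 and 9.60 TPM in WT libraries. Muscle RNA was thus low in WT replicates 1 and 3 alone, and its part in the group differences was not tested. Of the 6 liver markers, whose sums were 528 to 1399 TPM in Tumor libraries and 789 to 1851 TPM in WT libraries, Cyp2e1 made up nearly all. Alb stood at 3.01 to 16.2 TPM over the 6 libraries, and Ttr was listed at 0 in all but Tumor replicate 1, where it was 0.0503 TPM. Cyp2e1, a cytochrome that adipocytes also express, stood at 523 to 1382 TPM in Tumor libraries and 773 to 1831 TPM in WT libraries, lowest in the same library as the adipocyte markers.

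All 9 genes lie on the minus strand of GRCm38 (GENCODE M21). C1qb (136880129 to 136886187), C1qc (136889804 to 136893065) and C1qa (136895917 to 136898803) stand in a row on chromosome 4, with 3616 and 2851 bases between neighbours. C4b (34728380 to 34743882), Cfb (34856374 to 34862518) and C2 (34862604 to 34898265) share a stretch of chromosome 17, where Cfb and C2 are 85 bases apart and both lie under the annotated read-through gene Gm20547. C3 lies farther along chromosome 17 (57203970 to 57228136), C3ar1 on chromosome 6 (122847138 to 122856161) and Cfp on chromosome X (20925454 to 20931555). The C4b transcript is 96.0% identical over 5378 aligned bases to that of its paralog C4a, for which there was no row under that name. How reads shared between such genes were divided is not stated, so the levels of C4b, C2 and Cfb carry that uncertainty.

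RefSeq promoters (GRCm38.p6) matched 5 of the 9 genes, and the 250 bases before the start are shown for C1qb and C1qc, neighbours on chromosome 4 that were both highest in Tumor replicate 1, and for C3, the steadiest of the 9. Capitals mark matches on either strand to 4 searched motifs, which are an interferon-type motif GAAANNGAA, the gamma-activated site TTCNNNGAA, the C/EBP-type motif TTGCNNAA and the PU.1-type motif GAGGAA.
C1qb, chr4:136886201-136886450, minus strand: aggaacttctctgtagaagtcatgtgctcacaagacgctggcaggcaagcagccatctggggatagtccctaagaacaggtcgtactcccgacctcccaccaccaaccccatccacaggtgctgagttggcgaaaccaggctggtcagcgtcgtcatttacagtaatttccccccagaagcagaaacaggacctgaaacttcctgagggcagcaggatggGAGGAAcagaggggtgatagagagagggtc
C1qc, chr4:136892915-136893164, minus strand: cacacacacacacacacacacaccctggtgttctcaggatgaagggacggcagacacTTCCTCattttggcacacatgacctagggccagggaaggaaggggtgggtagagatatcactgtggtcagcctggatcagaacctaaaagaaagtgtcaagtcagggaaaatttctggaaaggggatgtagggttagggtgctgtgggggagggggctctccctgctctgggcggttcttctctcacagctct
C3, chr17:57228137-57228386, minus strand: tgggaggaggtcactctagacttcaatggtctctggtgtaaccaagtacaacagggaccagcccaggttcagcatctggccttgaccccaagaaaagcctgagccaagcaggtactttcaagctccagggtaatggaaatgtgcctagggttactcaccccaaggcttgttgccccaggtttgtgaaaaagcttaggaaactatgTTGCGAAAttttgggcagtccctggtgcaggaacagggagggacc
The start is that of RefSeq, which for C1qc lies 151 bases inside the GENCODE gene given above. C1qb held 1 PU.1-type match, which begins 30 bases before the start, and C1qc held 1 on the other strand, which begins 193 bases before the RefSeq start. C3 held 1 C/EBP-type match, 45 bases before the start. No other match to the 4 motifs was found in these windows, and none overlapped another. The windows of C3ar1 and Cfp, the other members with a promoter entry, held 0 matches to any of the 4 motifs. Over 32851 mouse promoter windows of the same length, 23.3% held the PU.1-type letters, 9.56% the C/EBP-type, 7.02% the gamma-activated site and 7.13% the interferon-type, so a match of the first kind is common.

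The libraries labelled Tumor and WT were compared to ask whether complement transcripts of fat differ between the groups, and no member passed the test. With limma on log2(TPM + 1), 0 of 9 members had an adjusted p below 0.05, as did 0 of all 14144 genes tested (0%). At an unadjusted p below 0.05 there were 0 members, against 5.45% of all genes. All 9 members had at least 1 TPM in 3 libraries and entered the test. The log2 difference was positive for 9 of 9 members, but so it was for 76.8% of all genes, and the median was 0.31 over the members and 0.23 over all genes. Median-ratio scaling brought the median of all genes to 0.038 and left 6 of 9 members positive, with C1qa at -0.014, C3 at -0.17 and C4b at -0.15. The groups did not overlap for 1 member, Cfp, which was higher in every Tumor library, whereas 11.8% of all genes were separated in that direction. In the opposite direction 0 members were separated, against 3.24% of all genes.

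**Figure D1:**
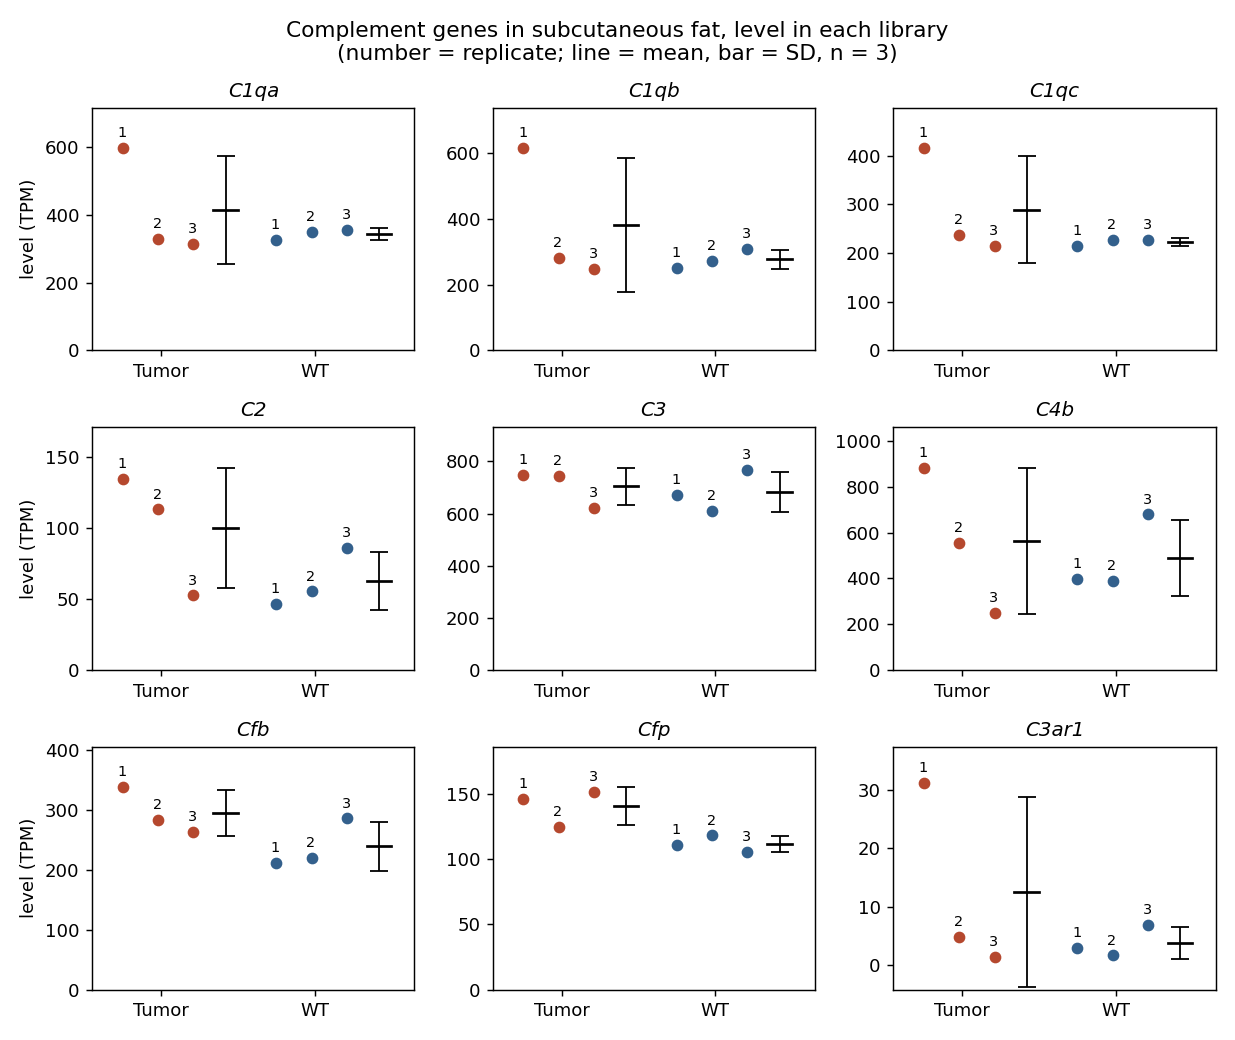
TPM (y axis) of the 9 complement genes in each library, Tumor left and WT right in each panel, with points numbered by replicate and the mean ± SD (n = 3) beside them. Tumor replicate 1 is the highest point for the C1q chains, C2, C4b, Cfb and C3ar1, and only for Cfp do all Tumor points lie above all WT points.

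The C1q chains, which assemble together into the recognition unit of the classical pathway, were abundant and nearly level in all libraries but 1. C1qa stood at 597, 329 and 315 TPM in Tumor libraries, against 325, 349 and 356 TPM in WT libraries. C1qb stood at 615, 282 and 247 TPM in Tumor libraries, against 251, 272 and 307 TPM in WT libraries. C1qc stood at 416, 237 and 215 TPM in Tumor libraries, against 214, 228 and 227 TPM in WT libraries. Tumor replicate 1 was the high library for every chain, at 1.78 times (C1qa), 2.26 times (C1qb) and 1.86 times (C1qc) the mean of the other 5, which differed little among themselves.

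The group difference of the C1q chains was smaller than the spread that this library brings. C1qa averaged 414 ± 159 TPM in Tumor and 343 ± 16.4 TPM in WT libraries (SD, n = 3 each), with a log2 difference of 0.21 (95% interval -0.50 to 0.91, limma adjusted p = 0.832). For C1qb the log2 difference was 0.34 (-0.57 to 1.25, limma adjusted p = 0.798) and for C1qc 0.31 (-0.37 to 1.00, limma adjusted p = 0.769). Without Tumor replicate 1 these were -0.090, -0.063 and 0.020 for C1qa, C1qb and C1qc. Without both libraries poor in lymphoid RNA, 2 against 2, they were -0.063, 0.015 and 0.033.

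The proportions of the chains were compared within each library. The ratio of C1qa to C1qc was 1.44, 1.39 and 1.47 in Tumor libraries, against 1.52, 1.53 and 1.57 in WT libraries. These ratios did not overlap between the groups, but the exact two-sided permutation test gave p = 0.1, the smallest that 3 against 3 allows, and 0.3 when adjusted by Benjamini and Hochberg over the 3 chain ratios. C1qa to C1qb ran from 0.971 in Tumor replicate 1 to 1.29 in WT replicate 1, and C1qb to C1qc from 1.15 in Tumor replicate 3 to 1.48 in Tumor replicate 1. Over the 6 libraries C1qa to C1qb thus varied by 1.33 times, C1qa to C1qc by 1.13 times and C1qb to C1qc by 1.28 times. The chains themselves varied by 1.89 to 2.49 times, but that wider range rests on Tumor replicate 1. Outside that library C1qa stood at 315 to 356 TPM and C1qc at 214 to 237 TPM, while their ratio still ran from 1.39 to 1.57. There the ratio of C1qa to C1qc was no steadier than either chain. C1qb spread more outside that library, at 247 to 307 TPM. Whether the chains keep fixed proportions was not tested.

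C1q comes mainly from macrophages, so its level was set beside 12 macrophage markers. In bulk tissue, fewer cells of a type and less RNA per cell cannot be told apart. The 12 markers summed to 3113, 1903 and 2593 TPM in Tumor libraries, against 1590, 1342 and 1130 TPM in WT libraries, a sum made up mostly of lysozyme (Lyz2). None of the 12 was at 0 in any library, 5 were separated between the groups and higher in Tumor (11.8% of all genes were), and 0 passed limma's adjusted threshold, with 4 at an unadjusted p below 0.05 and higher in Tumor (3.75% of all genes). Csf1r, the receptor of a macrophage growth factor, stood at 129, 79.2 and 83.4 TPM in Tumor libraries, against 55.7, 51.0 and 66.8 TPM in WT libraries. All Tumor libraries were above all WT libraries for Csf1r, which is among the 5 separated markers, unlike the C1q chains. For the remaining markers, Adgre1, Mrc1, Cd163, Mertk, Timd4, Cd14 and Folr2, the groups overlapped, as they did for the C1q chains.

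The summed C1q chains gave 1628, 848 and 777 TPM in Tumor libraries, against 790, 848 and 890 TPM in WT libraries. Per unit of Csf1r this was 12.6, 10.7 and 9.33 in Tumor libraries, against 14.2, 16.6 and 13.3 in WT libraries. Per unit of Fcgr1, a high-affinity antibody receptor of macrophages, it was 69.8, 67.5 and 75.9 in Tumor libraries, against 114, 127 and 136 in WT libraries. In both cases every Tumor library was below every WT library. Of the 12 markers, these were the 2 whose C1q ratio did not overlap between the groups, and the mean ratio was lower in Tumor for 8 and higher for 4, Mrc1, Cd163, Timd4 and Folr2. For Csf1r and Fcgr1 the exact permutation p was 0.1, and 0.48 when adjusted over the 12 ratios. With the adipocyte list as a covariate the log2 differences of C1qa, C1qb and C1qc were 0.34, 0.56 and 0.46 (limma adjusted p = 0.551, 0.492 and 0.489). With the mean macrophage level as a covariate the log2 differences of C1qa, C1qb and C1qc were -0.46, -0.60 and -0.38 (limma adjusted p = 0.371, 0.321 and 0.403). Centred on its mean, that covariate was 0.70, 0.30 and -0.11 in Tumor libraries, against -0.27, -0.32 and -0.31 in WT libraries. It was thus itself separated by group, so wherever it is used, here and below, covariate and group cannot be fully told apart. The part of macrophage content in the C1q levels was not tested.

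**Figure D2:**
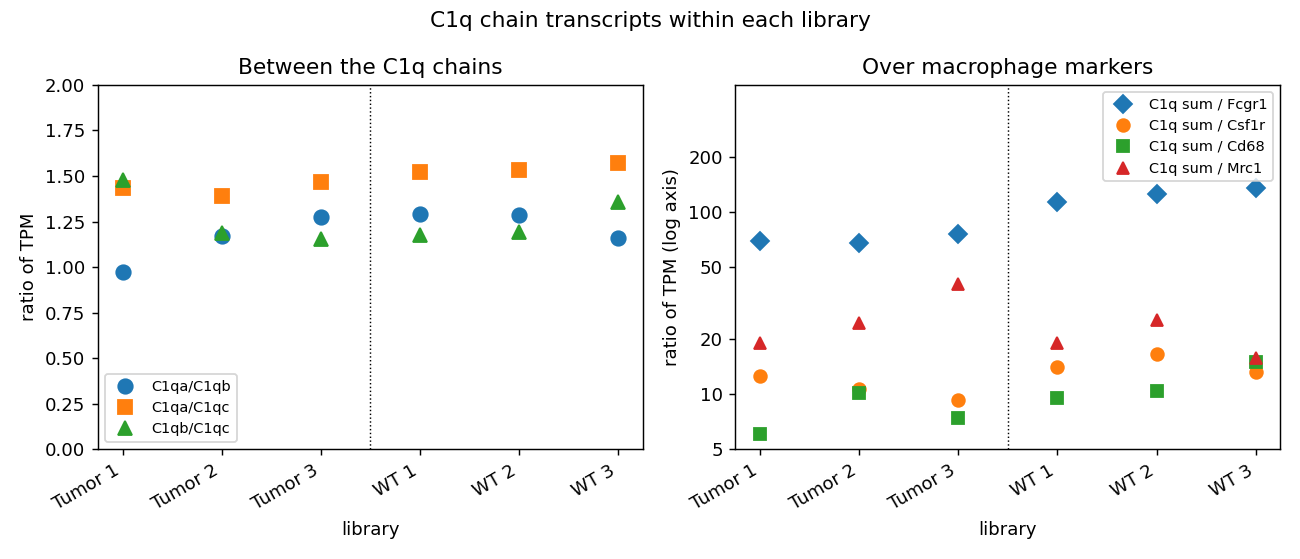
Ratios of TPM within each library (x axis, Tumor left of WT), between the C1q chains on the left and of the summed C1q chains over 4 macrophage markers on a log axis on the right. The chain ratios stay between 0.971 and 1.57, and the ratios over Fcgr1 and Csf1r are lower in each Tumor library than in each WT library, while those over Cd68 and Mrc1 overlap.

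C4b encodes C4 and C2 its partner in the classical enzyme that cleaves C3, and both varied more within Tumor (3.54 times for C4b and 2.56 times for C2) than within WT libraries (1.74 and 1.84 times). C4b stood at 883, 556 and 250 TPM in Tumor libraries, against 396, 391 and 679 TPM in WT libraries. It was highest in Tumor replicate 1 and lowest in Tumor replicate 3, so that the Tumor values spanned the WT values. C4b averaged 563 ± 317 TPM in Tumor and 489 ± 165 TPM in WT libraries (SD, n = 3 each), with a log2 difference of 0.074 (95% interval -1.17 to 1.32, limma adjusted p = 0.967). The sign of that difference turned to -0.34 without Tumor replicate 1, -0.0070 without Tumor replicate 2, -0.052 without WT replicate 1, -0.062 without WT replicate 2 and -0.078 in the comparison of 2 against 2. It was also negative with median-ratio (-0.15) and upper-quartile factors (-0.13), and it was -1.24 with the macrophage covariate (limma adjusted p = 0.289) but 0.50 with the adipocyte covariate (limma adjusted p = 0.478).

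C2 stood at 134, 113 and 52.6 TPM in Tumor libraries, against 46.7, 55.3 and 86.0 TPM in WT libraries. Tumor replicates 1 and 2 were above every WT library and Tumor replicate 3 was among them. The log2 difference of C2 was 0.61 (95% interval -0.40 to 1.62, limma adjusted p = 0.737), the second largest of the 9 members after C3ar1. It was 0.34 without Tumor replicate 1, 1.01 without Tumor replicate 3 and 0.59 in the comparison of 2 against 2. With the adipocyte list as a covariate it was 0.95 (limma adjusted p = 0.314), and with the macrophage list -0.34 (limma adjusted p = 0.630).

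The proteases that act between C1q and C4 had the same libraries on top as C4b. C1ra, the first of these proteases, stood at 160, 105 and 71.2 TPM in Tumor libraries, against 71.2, 61.5 and 124 TPM in WT libraries. C1s1, which cuts C4 and C2, stood at 370, 214 and 132 TPM in Tumor libraries, against 149, 113 and 290 TPM in WT libraries. Serping1, the inhibitor of both proteases, stood at 740, 352 and 254 TPM in Tumor libraries, against 309, 244 and 640 TPM in WT libraries. All 3 were highest in Tumor replicate 1 and next highest in WT replicate 3, the order also seen for C4b. C4b divided by C1s1 varied by 1.82 times over the 6 libraries and by Serping1 by 1.63 times, whereas C4b itself varied by 3.54 times. C4b divided by C2 varied by 1.79 times. It was 6.57, 4.91 and 4.75 in Tumor libraries, against 8.49, 7.06 and 7.89 in WT libraries, lower in every Tumor library. The group difference of that ratio was not tested. The 10 fibroblast and progenitor markers had the same 2 libraries on top, with sums of 9194, 2633 and 1449 TPM in Tumor libraries and 1938, 1476 and 4079 TPM in WT libraries. The 10 adipocyte markers did too, with sums of 23497, 16803 and 6414 TPM in Tumor libraries and 16388, 19670 and 28950 TPM in WT libraries. By these sums both lists were, like C4b, lowest in Tumor replicate 3. For the fibroblast and progenitor list WT replicate 2 was close to it, and was the lowest by mean log2 level (-0.96 against -0.84, relative to the mean of the 6 libraries). The part of either list in the levels of these genes was not tested.

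**Figure D3:**
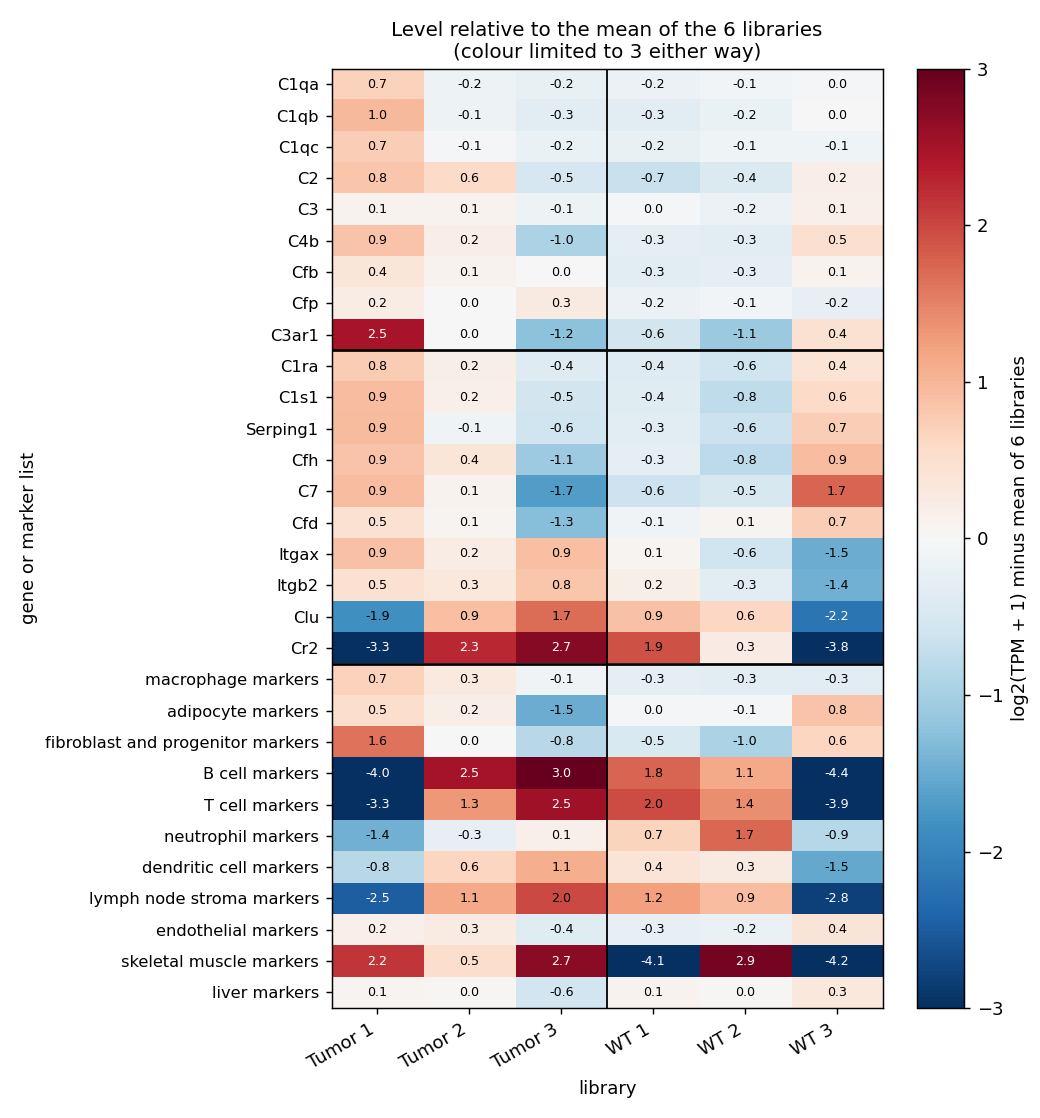
Each gene's log2(TPM + 1), or a marker list's mean, minus its mean over the 6 libraries, for the 9 complement genes (top), 10 other genes of the pathway (middle) and the marker lists (bottom), with Tumor libraries left of WT libraries. C4b, C1ra, C1s1 and Serping1 are high in Tumor replicate 1 and WT replicate 3, C3 is near 0 throughout, and Clu and Cr2 follow the B cell markers.

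C3, on which all pathways converge, was the most abundant of the 9 and the steadiest. It stood at 747, 745 and 623 TPM in Tumor libraries, against 670, 611 and 766 TPM in WT libraries, a range of 1.25 times over all 6. C3 averaged 705 ± 71.1 TPM in Tumor and 682 ± 78.0 TPM in WT libraries (SD, n = 3 each). The log2 difference of 0.048 had a 95% interval from -0.45 to 0.55 (limma adjusted p = 0.944), and its sign turned with the scaling (-0.17 with median-ratio and -0.15 with upper-quartile factors) and without WT replicate 2 (-0.028). Over the same libraries the adipocyte marker list varied from 6414 TPM in Tumor replicate 3 to 28950 TPM in WT replicate 3, both in sum over 10 genes. Like that list, C3 was highest in WT replicate 3 and next highest in Tumor replicate 1, but it was lowest in WT replicate 2. The part of adipocyte content in the C3 level was not tested.

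Of the alternative pathway, Cfb and Cfp had a higher mean in Tumor libraries and Cfd a lower one, and none passed the test. Cfb, which encodes factor B, stood at 338, 283 and 264 TPM in Tumor libraries, against 212, 220 and 286 TPM in WT libraries. Only WT replicate 3 reached into the Tumor range. Cfb had a log2 difference of 0.31 (95% interval -0.19 to 0.80, limma adjusted p = 0.737), which stayed positive under all 19 alternatives tried, from 0.054 with the macrophage covariate to 0.44 without WT replicate 3.

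Cfp, which encodes properdin, a product of myeloid cells, stood at 146, 125 and 152 TPM in Tumor libraries, against 111, 118 and 105 TPM in WT libraries. Every Tumor library was above every WT library, and the lowest Tumor value was close to the highest WT value. Cfp averaged 141 ± 14.3 TPM in Tumor and 112 ± 6.41 TPM in WT libraries (SD, n = 3 each), 1.26 times higher in Tumor, with a log2 difference of 0.33 (95% interval -0.041 to 0.70). Its limma adjusted p was 0.737, and its exact permutation p of 0.1 is the smallest 3 against 3 libraries can give. The difference was positive under all 19 alternatives, but 0.11 with median-ratio and 0.13 with upper-quartile factors. Cfp did not follow Tumor replicate 1 as the C1q chains did, since Tumor replicate 3 was its highest library.

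Cfd, the adipocyte protease that cuts factor B, was by far the most abundant gene of the pathway. It stood at 21976, 16983 and 6551 TPM in Tumor libraries, against 14922, 16997 and 26496 TPM in WT libraries. Tumor replicate 3 was lowest for Cfd and also for the adipocyte markers. The log2 difference of Cfd was -0.49 (limma adjusted p = 0.807) and 0.034 without Tumor replicate 3. It was -0.063 with the adipocyte covariate (limma adjusted p = 0.902) and -1.74 with the macrophage covariate (limma adjusted p = 0.289).

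C3ar1, the receptor for the C3a fragment, found on macrophages and other myeloid cells, was the lowest and the most uneven of the 9. It stood at 31.2, 4.81 and 1.46 TPM in Tumor libraries, against 2.95, 1.70 and 6.95 TPM in WT libraries. Tumor replicate 1 held 4.48 times the next highest library, WT replicate 3, and Tumor replicate 3 was the lowest of all. C3ar1 averaged 12.5 ± 16.3 TPM in Tumor and 3.87 ± 2.74 TPM in WT libraries (SD, n = 3 each), with a log2 difference of 0.81 (95% interval -1.58 to 3.21, limma adjusted p = 0.814). It was -0.22 without Tumor replicate 1, 1.64 without Tumor replicate 3 and 0.21 in the comparison of 2 against 2. With the macrophage list as a covariate it was -1.89 (limma adjusted p = 0.289), and with the adipocyte list 1.55 (limma adjusted p = 0.478). C3ar1 divided by Adgre1, a macrophage marker, was 0.491, 0.133 and 0.113 in Tumor libraries, against 0.251, 0.167 and 0.377 in WT libraries, so the receptor varied more than that marker did.

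Other receptors of complement fragments behaved in different ways. C5ar1, the receptor of C5a, stood at 42.6, 5.15 and 4.03 TPM in Tumor libraries, against 9.42, 6.26 and 19.6 TPM in WT libraries, with the same 2 libraries on top as for C3ar1. Itgax and Itgb2 encode the chains of complement receptor 4, an integrin of myeloid cells that binds cleaved C3. Itgax stood at 22.5, 14.0 and 23.1 TPM in Tumor libraries, against 12.5, 7.53 and 3.56 TPM in WT libraries. Itgb2, a chain shared by all leukocyte integrins of its family, stood at 86.1, 78.0 and 112 TPM in Tumor libraries, against 71.0, 49.2 and 22.5 TPM in WT libraries. Both were separated between the groups, with log2 differences of 1.34 for Itgax and 1.06 for Itgb2 (limma adjusted p = 0.737 for each). Without WT replicate 3, the lowest library for both, these were 0.93 and 0.61. With median-ratio factors they were 1.14 and 0.85 (limma unadjusted p = 0.041 and 0.093). Itgax was itself 1 of the dendritic cell markers. The groups overlapped for Itgam, an integrin chain also listed among the receptors. Itgam stood at 31.3, 19.0 and 14.5 TPM in Tumor libraries, against 9.01, 8.56 and 19.3 TPM in WT libraries (log2 difference 0.79, limma adjusted p = 0.737). Cr2, the complement receptor of B cells and follicular dendritic cells, stood at 0.463, 69.8 and 96.3 TPM in Tumor libraries, against 54.2, 16.6 and 0.0461 TPM in WT libraries, low in the same libraries as the B cell markers, of which it is itself 1.

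Of 43 other genes of the pathway, 42 had a row, all but C4a, and 27 had at least 1 TPM in 3 libraries. In limma 0 of these 27 passed at an adjusted p below 0.05, and 2, Itgax and Itgb2, had an unadjusted p below 0.05, both higher in Tumor, against 3.75% of all genes in that direction. The groups were separated for 3 of the 27, Itgax, Itgb2 and the C5a receptor C5ar2, all higher in Tumor, a share close to the 11.8% of all genes. The median log2 difference was 0.15, with 17 positive and 10 negative. Over all genes the median was 0.23 and 76.8% were positive, so these genes showed no excess of positive differences.

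**Figure D4:**
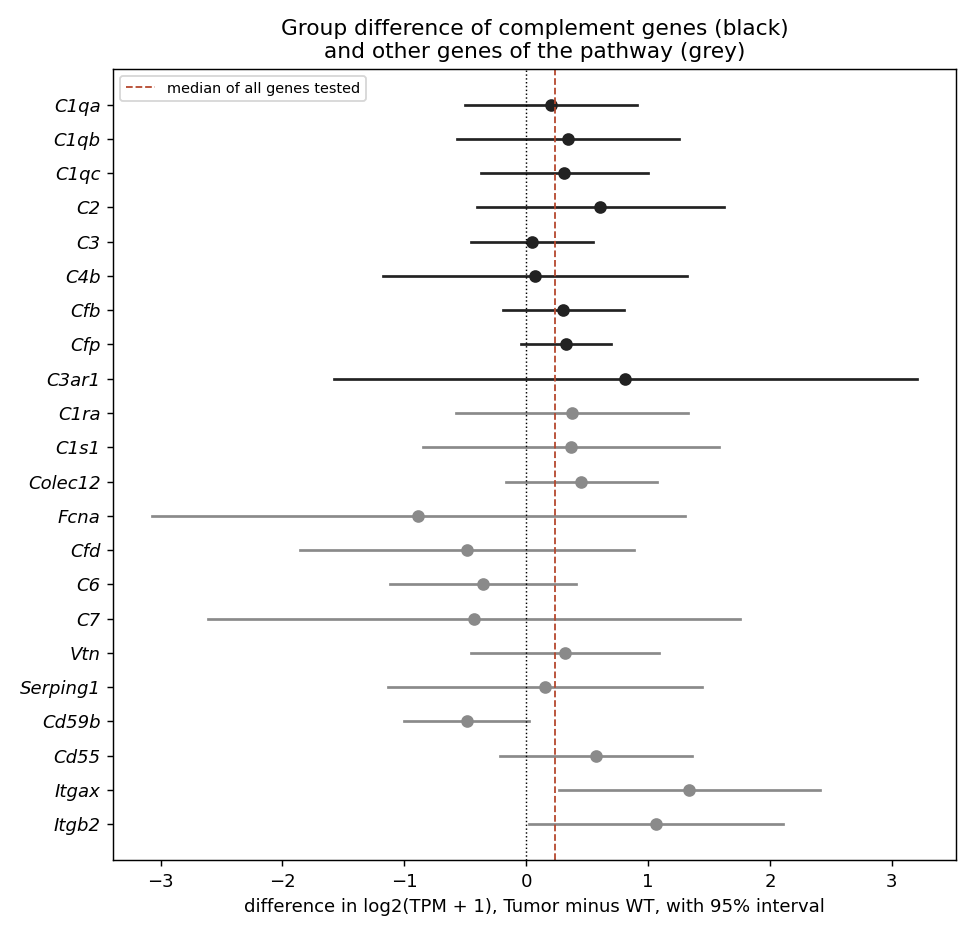
Difference in log2(TPM + 1), Tumor minus WT, with its 95% interval from limma (x axis), for the 9 complement genes in black and 13 other genes of the pathway in grey, with the median of all genes tested as a dashed line. The intervals of all 9 members include 0, and of the other genes those of Itgax and Itgb2 do not.

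Among lectin pathway genes 4 of 9 were tested, 2 positive and 2 negative. Fcna, which encodes the pattern receptor ficolin A, stood at 61.4, 20.5 and 7.17 TPM in Tumor libraries, against 41.4, 16.7 and 90.6 TPM in WT libraries, again highest in the 2 libraries poor in lymphoid RNA. Colec12, a scavenger receptor with a collectin domain, stood at 21.7, 15.5 and 19.2 TPM in Tumor libraries, against 15.3, 9.63 and 16.1 TPM in WT libraries. Mbl1 and Mbl2, the mannose-binding lectins made in liver, were listed at 0 in all 6 libraries.

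Of the terminal components, which build the lytic pore, 3 of 7 were tested, and C7 was the most abundant. The log2 differences were -0.43 for C7, -0.36 for C6 and -0.0015 for C8g, the last of these close to 0. C7 stood at 46.2, 25.5 and 6.71 TPM in Tumor libraries, against 15.1, 16.7 and 81.4 TPM in WT libraries, and its sign turned to 0.31 without Tumor replicate 3 and 0.34 without WT replicate 3. C6 stood at 8.39, 6.90 and 5.63 TPM in Tumor libraries, against 5.76, 11.5 and 11.2 TPM in WT libraries. C9 was at 0.125 TPM or less and C8b was listed at 0 in every library.

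Inhibitors made up the rest. Of the membrane inhibitors, which protect host cells, 4 of 6 had positive and 2 negative differences. Cd59b, which blocks the pore, stood at 19.5, 14.6 and 14.3 TPM in Tumor libraries, against 18.8, 25.8 and 24.3 TPM in WT libraries, with a log2 difference of -0.49 (95% interval -0.999 to 0.023, limma adjusted p = 0.737). Cd55, which breaks up the C3-cleaving enzymes, stood at 61.2, 115 and 129 TPM in Tumor libraries, against 69.9, 74.4 and 52.1 TPM in WT libraries, with a log2 difference of 0.57 (limma adjusted p = 0.737). The groups overlapped for both. Of the soluble inhibitors 4 of 8 were tested and all 4 had positive differences, Serping1 among them, where 76.8% of all genes were positive. Clu, or clusterin, an inhibitor of the pore that is also a general chaperone, stood at 77.7, 526 and 903 TPM in Tumor libraries, against 518, 433 and 60.8 TPM in WT libraries, low in the 2 libraries poor in lymphoid RNA. Vtn, or vitronectin, stood at 21.4, 40.8 and 39.0 TPM in Tumor libraries, against 21.5, 34.1 and 23.3 TPM in WT libraries.

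Ordered by mean TPM over the 6 libraries, the members ran from C3 (693 ± 67.8), C4b (526 ± 229), C1qa (379 ± 108), C1qb (329 ± 142), Cfb (267 ± 46.7) and C1qc (256 ± 78.8) to Cfp (126 ± 18.8), C2 (81.4 ± 36.2) and C3ar1 (8.17 ± 11.5), each with its SD. Each of the first 6 overlapped in range with its neighbours among them, and Cfb was above C1qc in 3 of 6 libraries. C1qc was above Cfp, and C2 above C3ar1, in all 6 libraries without overlap of their ranges. Cfp was above C2 within each of the 6 libraries, although their ranges overlapped.

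Over all genes tested, those closest in pattern to the mean log2 level of the C1q chains were Rps6kc1, Lilr4b, Cstb, Postn and Neurl2, with Pearson r of 0.996, 0.992, 0.991, 0.989 and 0.986 over the 6 libraries. Lilr4b is a receptor of myeloid cells, Cstb (cystatin B) an inhibitor of lysosomal proteases and Postn (periostin) a matrix protein. Each was highest in Tumor replicate 1, where Lilr4b stood at 126 TPM and at 17.7 to 22.6 TPM elsewhere. Without that library r was 0.876, 0.727, 0.788, 0.721 and 0.568 for Rps6kc1, Lilr4b, Cstb, Postn and Neurl2, so the likeness rests in large part on it. For C3 the 5 closest genes were Uevld, Ivd, Ebf1, Tmem132a and Ankrd46, with r from 0.994 to 0.996. Ivd, an enzyme of leucine breakdown, stood at 193, 200 and 105 TPM in Tumor libraries, against 132, 103 and 202 TPM in WT libraries. There were 61 genes with r of at least 0.95 to C1q and 288 to C3. With 6 points from shared libraries these values only describe the order of the libraries.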

How the data were processed

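RNA of mouse subcutaneous fat was measured in 6 libraries, 3 labelled Tumor and 3 labelled WT. The authors deposited 1 table, named as raw counts, whose values are TPM, since each column has the same sum and the values are not whole. The build GRCm38.p6 and the tool DESeq2 are named, per the submitters' processing notes, without a role. The sources used here name no aligner or quantifier. Reads per library are unknown, so no counting interval is given. Groups came from the sample titles, columns from the library identifiers in the labels, and no column was left unmapped.

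Values were tested as log2(TPM + 1) by limma 3.58.1 (R 4.3.3), with group alone, a mean-variance trend and robust moderation, for genes reaching 1 TPM in 3 or more libraries. The Benjamini-Hochberg adjustment ran over all 14144 genes, with a threshold of 0.05, and intervals are 95%. Fold differences of low genes are understated on this scale. Exact permutation tests used the 20 divisions of the 6 libraries and were two-sided. Replicate libraries may share more than the labels say, and p-values measure only the spread between these samples. The procedure was tested on simulated data. Positions came from GENCODE M21, promoters from RefSeq, C4 transcripts were aligned with blastn 2.17.0, and plots were made in Python 3.11.15 by matplotlib 3.10.9, pandas 2.3.3 and numpy 2.4.6.

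The members and lists were chosen with earlier results of these data known. Named were all members and, of the other complement genes, each that passed or else, in each role, the tested gene with the smallest p and the one with the highest mean. Also named were the first gene of marker lists, markers a result turned on and the 5 genes closest in pattern to C1q and to C3. Cr2, Clu, C5ar1, C5ar2, Itgam, C9, C8b, Mbl1 and Mbl2 were named after their values were seen. Alternatives were pseudocounts of 0.1 and 0.5, other filters, scalings and moderation, the replicate number as a block, marker covariates, and leaving out libraries. The comparison of 2 against 2 libraries, without WT replicate 3 and Tumor replicate 1, was added after seeing the data. Library identifiers of the groups come from separate number ranges, so a batch that goes with them cannot be told apart from the group.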

Additional observations from a re-analysis of the deposited data

How the results depend on the processing

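No member and no other complement gene passed the threshold under any of the 19 alternatives. Over all genes, 1 passed with the B cell covariate, Gm11594, named after its value was seen (log2 difference -3.04, limma adjusted p = 0.0309), and 0 under the others. With the adipocyte covariate 4 members had an unadjusted limma p below 0.05, against 1450 of all 14144 genes. They were C2, C4b, Cfb and C3ar1, all higher in Tumor. The B cell covariate gave 3 such members, C2, Cfb and C3ar1, all higher in Tumor, against 1813 genes. The macrophage covariate gave 1, C4b, lower in Tumor, against 2380 genes. Leaving out Tumor replicate 3 gave 1, C2, higher in Tumor, against 435 genes. The other alternatives gave 0 members. Of 417 log2 differences of the 22 named complement genes under alternatives, 34 had the opposite sign, and 22 of these were among the 170 of the members. The cause was not tested.

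With the macrophage covariate the log2 difference was -0.46 for C1qa, -0.60 for C1qb, -0.38 for C1qc, -0.34 for C2, -0.14 for C3, -1.24 for C4b, -1.89 for C3ar1, -0.46 for C1ra, -0.71 for C1s1 and -0.96 for Serping1. With median-ratio factors it was -0.014 for C1qa, -0.17 for C3, -0.15 for C4b and -0.068 for Serping1, and with upper-quartile factors -0.15 for C3, -0.13 for C4b and -0.048 for Serping1. With the adipocyte covariate C7 was at 0.31. In the comparison of 2 against 2 libraries C1qa was at -0.063 and C4b at -0.078. The macrophage covariate was itself higher in every Tumor library than in every WT library, so it overlaps with the group.

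With any single library left out, differences ran from -0.090 to 0.37 for C1qa, -0.063 to 0.59 for C1qb, -0.028 to 0.13 for C3, -0.34 to 0.57 for C4b, -0.22 to 1.64 for C3ar1, -0.84 to 0.034 for Cfd, -0.011 to 0.75 for C1s1, -1.0 to 0.34 for C7 and -0.28 to 0.56 for Serping1. Cfb ran from 0.20 to 0.44 and Cfp from 0.27 to 0.41.

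Deviations of same-numbered libraries correlated at -0.76, 0.20 and -0.84 for numbers 1, 2 and 3, which gave no sign that replicate numbers pair the libraries. The highest correlation, 0.85, was between Tumor replicate 1 and WT replicate 3, the libraries poor in lymphoid RNA. A pairing weaker than that likeness could not be seen in this way. With the replicate block 0 genes, 0 members and 0 other complement genes passed, and 183 genes had an unadjusted p below 0.05, against 771 without it. The filter at 5 TPM removed C3ar1. Levels rest on TPM of unknown depth, so precision of the lowest genes, such as C9, cannot be stated.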
